A study of Mus musculus with 4 samples.

Results

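H3K9ac, the acetylation of histone H3 at lysine 9 found at active promoters, was examined over 6 genes of the caspase cascade and the apoptosome in MDSC (myeloid-derived suppressor cells), which the labels give as derived from mouse bone marrow. The genes were Casp2, Casp8 and Casp9, which encode initiator caspases, Casp6, which encodes an executioner caspase, and Apaf1 and Cycs, which encode the scaffold and the activator of the apoptosome. They were taken as a fixed list of 6 among 21896 protein-coding genes, and all peaks over each gene's RefSeq span plus 10 kb on either side were counted as theirs. All 6 were matched to RefSeq on GRCm38.p6, the assembly behind the mm10 coordinates of the peaks.

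The study mapped H3K9ac by chromatin immunoprecipitation and sequencing in MDSC that had been made senescent in vitro, with CM plus romidepsin or with CM alone. The labels do not say what CM stands for. Romidepsin inhibits histone deacetylases, mainly of class I. Each condition had 1 immunoprecipitated library, so no test between conditions was made, no value has a replicate error, and the 2 values of a gene stand side by side. The input libraries were not analysed here, and strain, age, drug dose and duration are not stated in the labels. The list for CM plus romidepsin held 103336 peaks over 200.4 Mb and that for CM 16419 peaks over 23.0 Mb. The depth of sequencing is not known for either library, and it affects how many peaks are called and how wide. In mixed cells, more cells with a mark and more of the mark per cell cannot be told apart. Of 10 myeloid markers, all 10 had a peak within 1 kb of the start site with romidepsin and all 10 in CM. The counts with romidepsin and in CM were 6 and 1 of 10 for lymphocyte and 5 and 3 of 6 for erythroid and megakaryocyte markers. They were 6 and 1 of 8 for stromal and endothelial markers. Over all 17491 protein-coding genes with a listed start, 62.2% had such a peak with romidepsin and 50.3% in CM. Markers without a listed start were searched at both gene ends. The part of other cells in the peaks over the 6 genes was not tested.

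Caspases are proteases made as inactive precursors that cut one another and then many cell proteins during apoptosis. Caspase-8 is activated at death receptors on the cell surface. Caspase-9 is activated on the apoptosome, a wheel of APAF1 molecules that assembles when cytochrome c, the product of Cycs and otherwise an electron carrier of the respiratory chain, leaves the mitochondria. Caspase-2 is activated on another scaffold, the PIDDosome. Caspase-6 acts downstream and cuts nuclear lamins among other targets. H3K9ac is usually found on the nucleosomes that flank the start of an active gene.

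Promoter sequences of 3 genes are shown because their peaks sat differently on the start site: at Casp9 the start lay between peaks, at Cycs it lay under the narrow and strong romidepsin peak, and Casp8 had the promoter poorest in CpG. Each run is the 250 bases before the RefSeq start, 5′ to 3′ on the gene's strand (GRCm38.p6), and capitals mark the motifs named after it.
Casp9, chr4:141793362-141793611, plus strand: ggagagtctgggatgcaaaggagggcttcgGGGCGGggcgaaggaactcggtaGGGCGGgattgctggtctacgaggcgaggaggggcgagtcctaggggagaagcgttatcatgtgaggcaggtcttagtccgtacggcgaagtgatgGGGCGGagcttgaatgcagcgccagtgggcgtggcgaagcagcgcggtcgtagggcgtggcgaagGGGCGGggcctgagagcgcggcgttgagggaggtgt
Cycs, chr6:50566570-50566819, minus strand: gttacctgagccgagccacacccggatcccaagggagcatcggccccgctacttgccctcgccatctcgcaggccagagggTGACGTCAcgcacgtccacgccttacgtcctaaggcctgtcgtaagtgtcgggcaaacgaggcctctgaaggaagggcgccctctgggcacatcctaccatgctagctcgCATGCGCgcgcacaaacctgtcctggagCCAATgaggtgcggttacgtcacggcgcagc
Casp8, chr1:58802252-58802501, plus strand: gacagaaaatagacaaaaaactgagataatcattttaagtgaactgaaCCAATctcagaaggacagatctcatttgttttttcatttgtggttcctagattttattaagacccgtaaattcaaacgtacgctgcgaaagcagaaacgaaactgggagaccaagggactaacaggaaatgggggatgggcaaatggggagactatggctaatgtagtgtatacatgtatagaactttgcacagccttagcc

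In these 250 bases Casp9 held 25 CpG and 4 copies of the GC box, which SP and KLF factors read. Cycs held 23 CpG and 1 match each to the cAMP response element, to the core of the NRF1 site and to the CCAAT box of NF-Y, in this order. Casp8 held 5 CpG and 1 CCAAT box before its listed start. The beginning of its gene span, 7269 bp before that start, was not searched. The other promoters held 42 CpG (Apaf1), 17 (Casp2) and 11 (Casp6), and the median over 17491 protein-coding promoters was 10. Apaf1 thus stood at the 99.2 percentile, while Casp8 was below the median. Motifs were searched on both strands. The GC box, spelled GGGCGG, was found in Casp2, Casp6, Casp9 and Apaf1, and in 42.7% of all 17491 promoters. The box spelled CCAAT was found in Casp2, Casp8 and Cycs and in 36.3% of promoters. The NRF1 core was searched as CATGCGC and found in Casp2, Apaf1 and Cycs, which is 3 of 6 genes, and in 4% of promoters. The cAMP response element was searched as TGACGTCA and found in Cycs and in 2.01% of promoters. An E2F site, searched as TTTCCCGC and as a second form, TTTGGCGC, was found in Casp2, where it overlapped the GC box, and in 1.74% of promoters. The 250 bases before the 6 starts held no match to the ETS core, searched as CCGGAAG and found in 9.12% of promoters. They held none to the core of the interferon-stimulated response element, searched as 2 copies of GAAA with 2 bases between them and found in 3.02%. The TATA box, searched as TATAAA, was also absent from these bases and was found in 12.4% of promoters. The motifs were chosen after the promoters had been read, so an excess over these shares was not tested. A match describes the letters and is not a binding site.

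All 6 genes carried H3K9ac at the start site in both conditions. Every gene had a peak within 1 kb of its start with romidepsin and in CM, where 62.2% and 50.3% of the 17491 genes with a listed start had one. Every gene also had a peak somewhere in its window, against 72.2% of all protein-coding genes with romidepsin and 58.8% in CM. The start-site peak of each of the 6 had a −log10 q of at least 5 in both lists, against 46.2% of genes with romidepsin and 30.8% in CM. These shares are of all 17491 genes, those without a start-site peak included. The gene set was thus marked with and without the drug, and what differed between the lists was how far the peaks reached and how many lay around them.

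**Figure D1:**
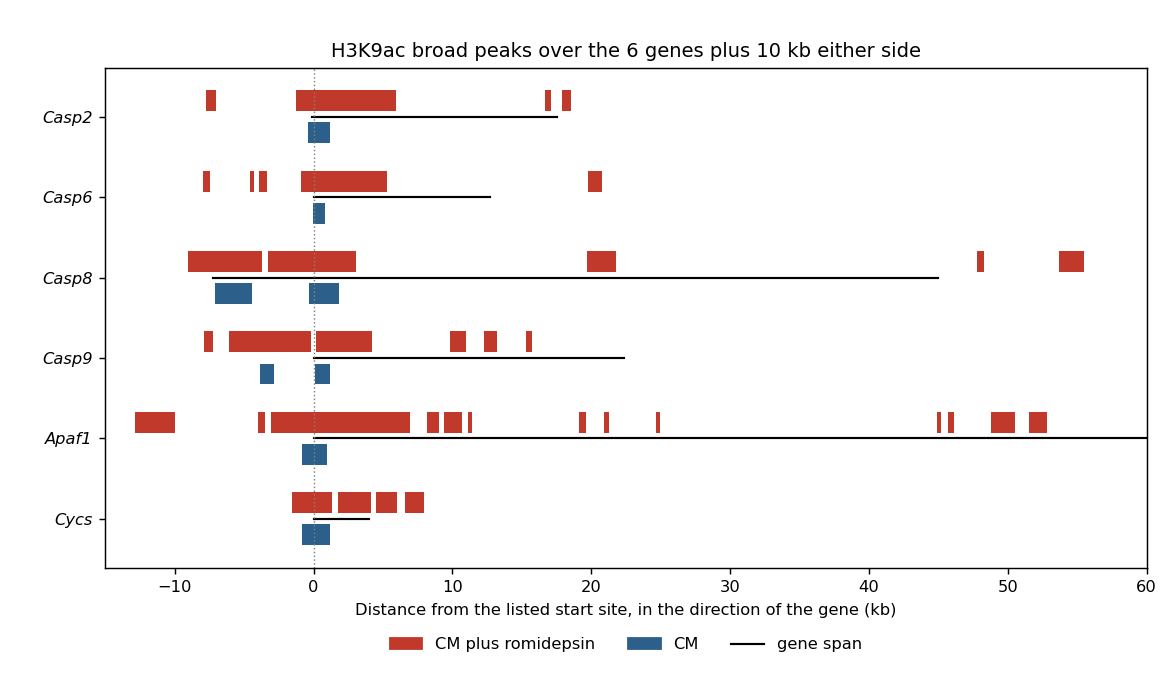
Each row is 1 gene, with the romidepsin peaks above the gene span (black line) and the CM peaks below it, along the distance in kb from the start site; the span of Apaf1 runs on past the axis limit of 60 kb, where neither list had a peak. The 37 romidepsin peaks spread over the windows, whereas of the 8 CM peaks 6 lay at the starts, 1 near the beginning of the Casp8 span and 1 at the start of Dnajc16 beside Casp9.

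The 6 windows held 37 peaks with romidepsin and 8 in CM. The peaks covered 72249 bp of the 322383 bp with romidepsin (22.4%) and 13197 bp in CM (4.09%), a ratio of 5.47, against 8.70 for the whole lists. The median share of a window under peaks was 25.3% with romidepsin and 4.58% in CM over the 6 genes. It was 12.0% with romidepsin and 1.45% in CM over all protein-coding genes, those without a peak included. With romidepsin the shares of the 6 stood between the 54.7 (Apaf1) and the 72.2 (Cycs) percentile of all protein-coding genes. For single genes the ratio of covered sequence ranged between 3.19 at Casp8 and 10.2 at Casp6, with a median of 5.95. Over the 12876 protein-coding genes with a CM peak in the window the median was 5.56, close to that of the 6 genes. This ratio counts all peaks in a window, also the romidepsin peaks that met no CM peak.

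**Figure D2:**
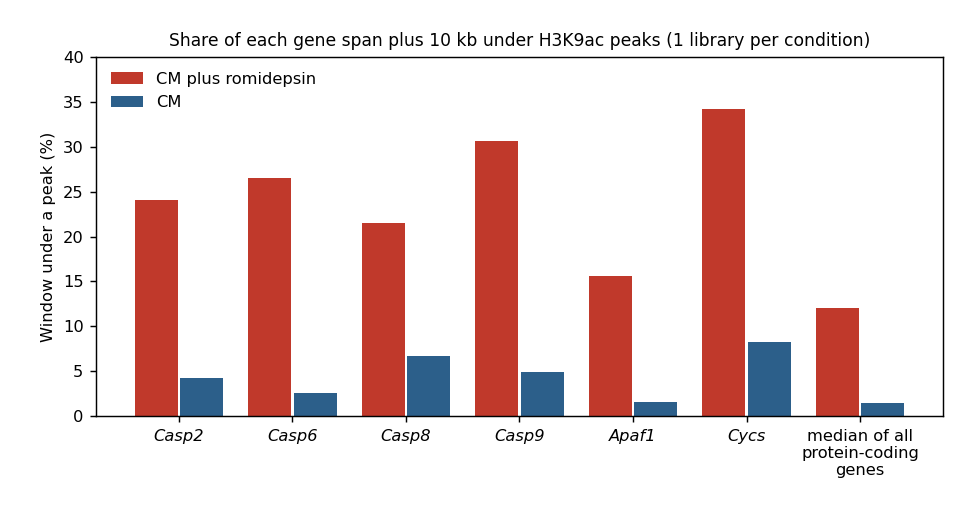
Bars give the percent of each gene span plus 10 kb under a peak, with romidepsin (left bar) and in CM (right bar), from 1 library each, and the medians over all protein-coding genes at the right. Cycs had the highest share in both lists (34.2% and 8.22%) and Apaf1 the lowest (15.7% and 1.60%).

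The order of the genes by covered share was Cycs, Casp9, Casp6, Casp2, Casp8 and Apaf1 with romidepsin, and Cycs, Casp8, Casp9, Casp2, Casp6 and Apaf1 in CM. Without replicates it cannot be said which neighbours in this order differ. The share is relative to a window whose length depends on the gene. Cycs, with the highest share, is the shortest of the 6 (4007 bp) and Apaf1, with the lowest, the longest (93433 bp). In CM the shares of the other 4 fell from the longest gene to the shortest, the reverse of that pair. With romidepsin the other 4 did not follow the order of their lengths. By the distance between these pairs of shares over the 2 libraries, the nearest protein-coding gene was Zfp174 to Casp2, Crnkl1 to Casp6, Psph to Casp8, Prpf6 to Casp9, Esyt2 to Apaf1 and Sqle to Cycs, at 0.00947 to 0.178 percentage points.

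Among the initiators, Casp8 had H3K9ac at 2 places, the beginning of the gene span and the listed start inside it. In the romidepsin list a peak of 5333 bp (chromosome 1, 58793479 to 58798811, fold 4.04) lay over the beginning of the gene span and a second one of 6295 bp (58799235 to 58805529, fold 4.01) over the listed start at 58802502, with 423 bp between them. In CM the same places held peaks of 2708 bp (58795373 to 58798080, fold 5.75) and 2166 bp (58802170 to 58804335, fold 6.08), with 4089 bp between them. The first CM peak began 140 bp inside the gene span, which begins 7269 bp before the listed start. Casp8 was thus the gene where 2 CM peaks lay within the gene and where the romidepsin peaks nearly closed the distance between them. A romidepsin peak of 2089 bp inside the gene (58822177 to 58824265, fold 2.51) and 2 over Gm28802, downstream, met no CM peak.

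At Casp9 the start base itself was free of peaks in both lists. With romidepsin a peak of 5907 bp (chromosome 4, 141787542 to 141793448, fold 4.12) ended at −164 bp from the start and the next one of 4060 bp (141793765 to 141797824, fold 4.11) began 153 bp after it. The 316 bp between them held 2 of the 4 GC boxes of the sequence above. In CM a peak of 1067 bp (141793744 to 141794810, fold 6.38) began 132 bp after the start, and the upstream CM peak of 1028 bp (141789758 to 141790785, fold 6.57) lay at the start of Dnajc16, the neighbouring gene on the other strand, 2968 bp away. A start base free of peaks with a peak on each side within 1 kb was found at 1.19% of genes with romidepsin and 0.983% in CM, and Casp9 met that rule with romidepsin only. The start base was under a peak at the other 5 genes in both lists, against 58% of genes with romidepsin and 43.4% in CM. When peaks closer than 1 kb were merged, the gap at Casp9 closed and the romidepsin peak ran over 10283 bp. Inside the gene 3 more romidepsin peaks of 398 to 1117 bp met no CM peak.

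Casp2 had 1 CM peak and 1 long romidepsin peak around it. With romidepsin the start-site peak measured 7187 bp (chromosome 6, 42263736 to 42270922, fold 3.58) and reached the end of Tmem139, the gene upstream. In CM it measured 1588 bp (42264582 to 42266169, fold 5.64). Casp2 had the lowest romidepsin fold at the start of the 6 genes, at the 29.0 percentile of all start-site peaks in that list. The 3 further romidepsin peaks were of 459 to 730 bp with folds of 2.14 to 2.70, and 2 of them lay at and just past the far end of the gene.

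The executioner gene Casp6 had the narrowest CM start-site peak and, with peaks as deposited, the greatest relative widening. With romidepsin the peak measured 6256 bp (chromosome 3, 129900476 to 129906731, fold 3.67). In CM it measured 851 bp (129901390 to 129902240, fold 5.63), at the 16.2 percentile of CM start-site peaks by length, and began at −25 bp from the start. Both peaks also covered the start of the noncoding gene Gm46825, which runs the other way from 16 bp inside Casp6, and the romidepsin peak reached the start of Gm40150, a noncoding gene within Casp6. A romidepsin peak of 1042 bp with a fold of 3.11 lay downstream within Mcub, and 3 of 293 to 604 bp lay upstream.

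Apaf1, the apoptosome scaffold, had the strongest CM peak of the 6 and, as deposited, the longest romidepsin peak. With romidepsin the peak at the start measured 9942 bp (chromosome 10, 91075832 to 91085773, fold 3.92) at the 55.1 percentile of start-site folds. In CM it measured 1816 bp (91081774 to 91083589, fold 6.98) at the 91.0 percentile of that list. The 2 percentiles rank genes within lists of different lengths and do not measure a change. Both peaks also covered the start of Ikbip, a gene on the other strand whose start lies 296 bp away, so the mark cannot be given to one of the pair. Apaf1 also held 13 of the 37 romidepsin peaks, and 10 of them lay inside the gene without a CM peak, at 8188 to 52821 bp from the start. These 10 were of 293 to 1752 bp with folds of 2.21 to 2.88, and the gene is long enough to hold many. One further peak over Ikbip crossed the edge of the window.

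Cycs, the cytochrome c gene, had the strongest and shortest romidepsin peak at a start. With romidepsin it measured 2860 bp (chromosome 6, 50565256 to 50568115) with a fold of 4.83 and a −log10 q of 9.71. That fold was at the 98.6 percentile of start-site peaks in the romidepsin list, while the length was at the 28.4 percentile. In CM the peak measured 1973 bp (50565403 to 50567375, fold 6.11, −log10 q 5.96), at the 63.6 percentile by fold. Both also covered the start of the noncoding gene 5430402O13Rik, 74 bp away on the other strand. The other 3 romidepsin peaks at Cycs lay downstream, of 1395 to 2409 bp and with folds of 2.60 to 3.08, separated by gaps of 315 to 523 bp, and none met a CM peak. Merging peaks closer than 1 kb joined all 4 into 9502 bp, so the short length rested on those gaps. Read as deposited, Cycs had a narrow strong peak with weaker peaks over its body and beyond its end.

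At the listed start, widening downstream exceeded widening upstream more often than the reverse, in about the share seen over all genes. The romidepsin start-site peak was 7.35 times as long as the CM peak at Casp6, 5.47 at Apaf1, 4.53 at Casp2, 3.81 at Casp9, 2.91 at Casp8 and 1.45 at Cycs. The median of 4.17 stood beside 3.37 over 8797 genes with a CM peak at the start and a romidepsin peak over it. The sequence added downstream exceeded that added upstream at 4 of 6 genes, against 65.3% of the 8797. At Casp2 the romidepsin peak added 4753 bp downstream and 846 bp upstream, at Casp6 4491 and 914 bp, and at Apaf1 5942 and 2184 bp. At Casp9 it added 3014 bp downstream and upstream −21 bp, that is, it began inside the CM peak. Casp8 and Cycs had more added upstream, with 2935 and 740 bp, than downstream, with 1194 and 147 bp. The upstream addition at Casp8 still lay inside the gene span, which begins 7269 bp before the listed start. After merging, the ratio was 9.64 at Casp9, 5.56 at Casp8 and 4.82 at Cycs. The merged peaks at Casp9 and Casp8 each spanned 2 CM peaks, the one at Dnajc16 or at the beginning of the Casp8 span included, and the ratio sets them against the start-site CM peak alone. Casp9 then had more added upstream (6202 bp) and Cycs more downstream (6789 bp).

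**Figure D3:**
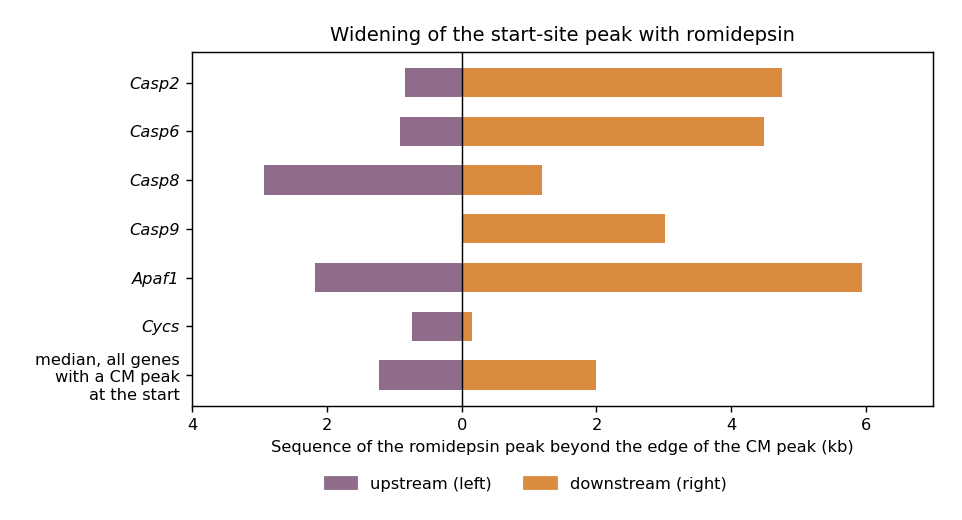
Bars give, in kb, how far the romidepsin start-site peak ran beyond the edges of the CM peak, upstream to the left and downstream to the right, with the medians over 8797 genes (1230 bp upstream and 1987 bp downstream) in the last row. Casp2, Casp6, Casp9 and Apaf1 have the longer bar downstream, and Casp8 and Cycs upstream.

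Along the distance from the start, all 6 genes were under a romidepsin peak and none under a CM peak at 2.5 kb downstream. There 38.9% and 5.06% of the 17491 genes were. All 6 genes had a start-site peak in both lists, whereas the 17491 include genes without one. At 5000 bp downstream the counts were 4 with romidepsin and 0 in CM (26.6% and 1.96% of genes), and at 5000 bp upstream 2 and 1 (20.4% and 1.96%). The upstream CM peak at that point was the one at the beginning of the Casp8 span.

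**Figure D4:**
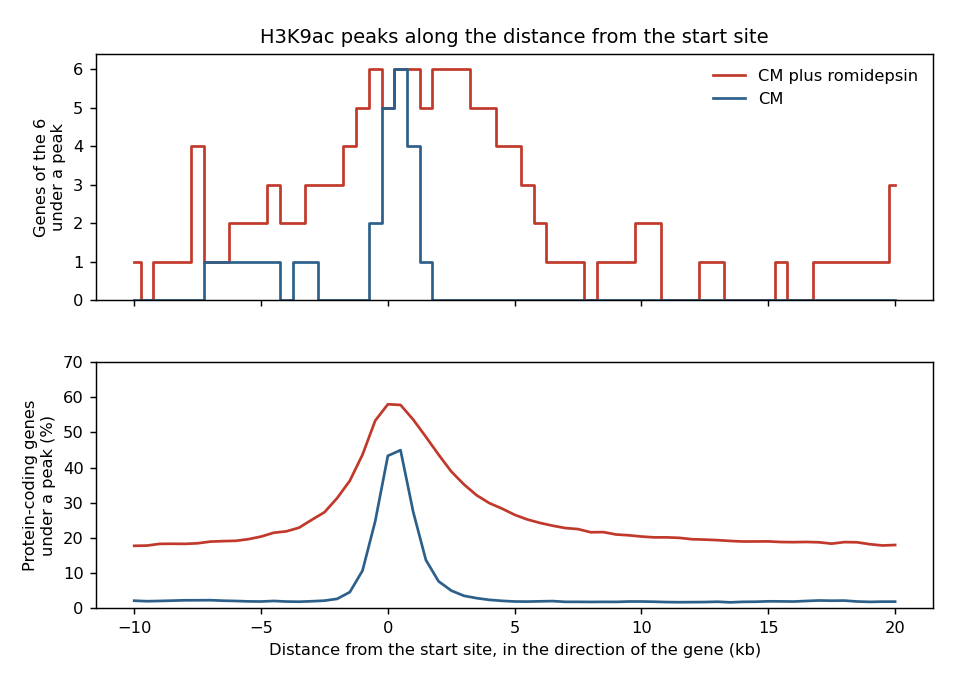
The upper panel counts how many of the 6 genes lie under a peak at each distance from the start, with romidepsin and in CM, every 500 bp between 10 kb upstream and 20 kb downstream; the lower panel gives the percent of 17491 protein-coding genes. In the lower panel the CM curve is high only near the start, while in the upper panel 1 gene at a time is also under a CM peak further upstream (the Casp8 span and Dnajc16 peaks). The romidepsin curve of the lower panel is higher downstream than upstream at equal distances up to 10 kb. In the upper panel this holds between 1000 and 5500 bp and again at 9500 and 10000 bp. At 7500 bp, 4 genes were under a romidepsin peak upstream and 1 downstream.

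The romidepsin peaks fell into long ones over CM peaks and short weak ones elsewhere. Of the 37, 8 (21.6%, exact interval 9.83 to 38.2) met a CM peak, against 12.9% of the whole romidepsin list, and each of the 8 CM peaks was met by 1 of them. These 8 had lengths of 2860 to 9942 bp, folds of 3.58 to 4.83 and a −log10 q of at least 5.55. The other 29 had lengths of 293 to 2836 bp, with a median of 680 bp, and folds of 2.14 to 3.37. Their highest −log10 q was 4.37, so at a −log10 q of at least 5 only the 8 peaks over CM peaks remained. Over the whole list the median length was 4865.5 bp for peaks that met a CM peak and 806 bp for the rest. Of the 29 peaks, 16 lay inside the genes, 7 upstream and 6 downstream, and 13 lay within 10 kb of a CM peak (36.4% of such peaks in the whole list).

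**Figure D5:**
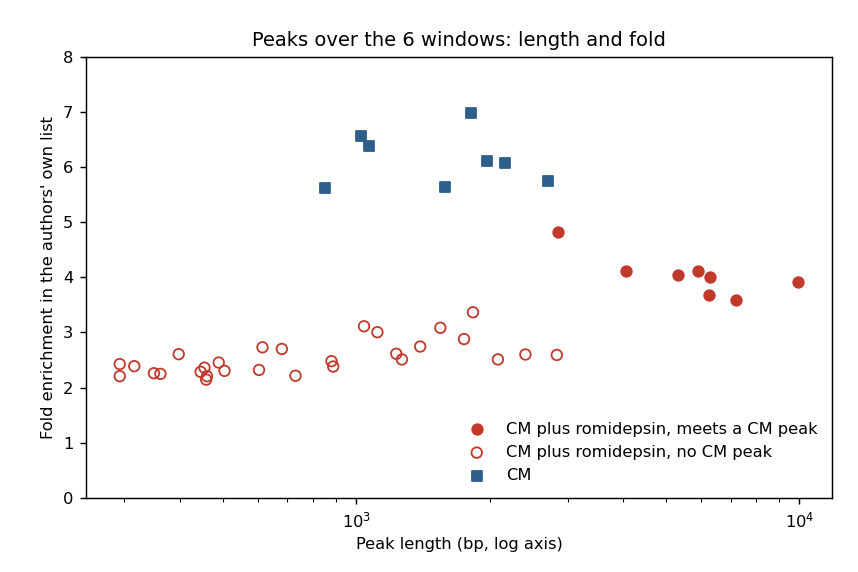
Each point is 1 peak over the 6 windows, with its length on a log axis and its fold in the authors' own list. The 8 romidepsin peaks that met a CM peak (filled circles) have folds of 3.58 to 4.83, the 29 without one (open circles) 2.14 to 3.37, and the 8 CM peaks (squares) 5.63 to 6.98; folds of the 2 lists rest on different backgrounds and are not to be compared.

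Most of the listed partners of these genes in the pathway were also marked at the start. The list was chosen with earlier results of these data known and leaves out some pathway genes. Of 22 further genes, 21 had a peak at the start with romidepsin and 20 in CM. Over all genes with a listed start, 62.2% had one with romidepsin, 50.3% in CM and 50.3% in both lists. The 18 genes outside the non-apoptotic caspases all had one in both lists. They were 2 of 2 genes of the apoptotic nuclease and its inhibitor, 4 of 4 of the death receptor complex, 2 of 2 of the PIDDosome, 3 of 3 of the mitochondrial pore, 4 of 4 released mitochondrial factors and 3 of 3 caspase inhibitors. The median start-site fold over the genes with such a peak was 3.94 with romidepsin and 5.80 in CM over the 22, 3.96 and 6.09 over the 6, and 3.86 and 5.79 over all genes with such a peak. The highest romidepsin fold of each role was at Dffb, the caspase-activated nuclease (4.25 with romidepsin, 6.82 in CM), Ripk1, a death receptor kinase (4.54 and 5.47), Pidd1, the PIDDosome scaffold (4.38 and 4.95), Bax, a pore former (4.37 and 5.72), Endog, a mitochondrial nuclease (4.03 and 6.20), and Birc3, an inhibitor of apoptosis (3.88 and 6.66). The Pidd1 peak measured 48130 bp with romidepsin and 1537 bp in CM. Which other genes lay under the romidepsin peak was not examined, so its length and fold cannot be given to Pidd1 alone.

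The genes without a start-site peak in one or both lists were caspases outside apoptosis. Casp1 and Casp4, the inflammatory caspases, had a peak at the start with romidepsin (folds 4.35 and 3.76) and in CM (4.91 and 6.0). Casp12, of the same gene cluster, had a romidepsin peak of 2035 bp with a fold of 2.42 and no CM peak within 10 kb of its span. Casp14, a caspase of the skin, had no start-site peak in either list. A peak in the romidepsin list only was found at 11.9% of all genes with a listed start.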

How the data were processed

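Peak lists of the 2 immunoprecipitated libraries were used. Per the submitters' processing notes, Bowtie2 (2.4.4), MACS2 (2.2.7.1) and deepTools (3.5.1) were used with mm10; the sources used here give neither the peak calling settings nor whether the input was the control. Each deposited list gives, per broad peak of 1 library, a score, a fold enrichment (a ratio), a −log10 p-value and a −log10 q-value, which are the authors' own and averages over the region. Folds were compared within 1 list only, since folds of the 2 lists rest on different backgrounds. Peak numbers, lengths, positions and covered sequence were set side by side between the lists.

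Positions were written with a first base numbered 1. Starts came from the RefSeq promoter table (GRCm38.p6), the first listed for each gene, and for Tradd and Htra2 both gene ends were used. Some pathway genes are not reported here. Exons were not analysed here. Overlap meant at least 1 bp. The start-site peak was the strongest by fold within 1 kb, and its partner the romidepsin peak sharing most bases. The interval is Clopper-Pearson at 95% and covers counting error only. Python 3.11.15 and pandas 2.3.3 were used, and overlap code was tested on simulated intervals.

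The members and lists were chosen with earlier results of these data known, and the motifs after the promoters had been read. Named were the 6 genes, genes sharing their start-site peaks, pathway genes with differing or absent calls, the strongest of each role, and the nearest gene by covered share. Other genes under peaks were named after their values were seen.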

Additional observations from a re-analysis of the deposited data

How the results depend on the processing

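All 6 genes kept a start-site peak in both lists under a minimum −log10 q of 5, a minimum fold of 3, equal numbers of strongest peaks, merging within 1 kb, and windows of 500 bp and 2.5 kb. Under a minimum −log10 q of 10 there were 0 peaks and 0 genes with one in either list, and no ratio could be given. The 37 romidepsin peaks became 8 under the q minimum of 5, 12 under the fold minimum, 9 with equal numbers and 23 without flanks; the CM count was 7 or 8 in these settings. The ratio of covered sequence became 3.63 under the q minimum of 5 and was 3.73 to 5.85 in the other settings. Only 2 romidepsin peaks met CM peaks over at least 50% of their own length, which follows from their greater length. Of 45 alternative values 35 stayed within 1.5 times the reported one; those on widening were chosen after seeing the data. No paired analysis was possible because each condition had 1 library. Unknown read depth limits all peak numbers and lengths.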
